A study of Homo sapiens with 30 samples.

Results

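DHT, a natural androgen, and enzalutamide, an antiandrogen drug, were compared in MR49F cells kept in charcoal-stripped serum, a medium from which steroid hormones have largely been removed. The comparison rests on 6 of the 30 RNA-seq samples of the series, 3 with DHT and 3 with enzalutamide, and the 3 vehicle samples of the same experiment gave the baseline. MR49F is an enzalutamide-resistant derivative of the LNCaP prostate cancer line that was taken from xenografts and is kept in enzalutamide. It is 1 cell line. Cells spent 72 h in 10% charcoal-stripped serum and then 24 h with vehicle, 1 nM DHT or 10 µM enzalutamide. The doses differ and neither ligand was given at a second dose, so ligand and dose cannot be told apart. In a parallel set of samples each treatment was combined with 500 nM JQ-1, an inhibitor of the BET bromodomain proteins. A further 6 MR49F samples had enzalutamide or vehicle in 10% full serum, which contains androgens. The study calls the 3 samples of a group biological replicates, with wells pooled within each before RNA extraction. Whether they came from separately grown cultures is not stated, and p-values then measure only the spread between these samples.

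Androgens are steroid hormones that change transcription through androgen response elements near their target genes. DHT is the strongest natural androgen. Enzalutamide was made to block androgen action, but it can act as an agonist in some resistant cells. In luminal prostate cells androgens drive secreted proteases such as KLK3 (prostate-specific antigen), lipid and polyamine synthesis and the secretory machinery, and they repress another set of genes.

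Read counts per gene were low in charcoal-stripped serum. The DHT samples held 1356700 to 1482981 reads on genes and the enzalutamide samples 1059382 to 1702742. This was 5.13% to 7.51% of the uniquely aligned reads, against 76.1% to 77.8% in the MR49F samples in full serum. In the DHT and enzalutamide samples 117 genes had at least 10 CPM (counts scaled to library size) but under 0.2 FPKM (fragments per kilobase of transcript and library size), and 91 of the 98 of these that could be matched to an annotation had an exon overlapping an exon on the opposite strand, against 47.0% of all matched genes tested. In the full serum samples 2 genes had at least 10 CPM and under 0.2 FPKM, and 1 of them had such an overlap. The counts of the charcoal-stripped samples may therefore hold reads of the opposite strand. FPKM come from the same libraries by another program, and a gene is named here only where edgeR on counts and limma on FPKM called it in the same direction and the DHT and enzalutamide samples did not overlap on either scale, unless stated. All 12 luminal prostate markers averaged at least 1 FPKM, with a summed level of 2402 to 2463 FPKM with enzalutamide and 3494 to 3717 FPKM with DHT. Of 11 markers of basal, stromal, immune and endothelial cells 2 reached 1 FPKM, the 11 summed to 4.24 to 4.65 FPKM with enzalutamide and 4.15 to 4.92 FPKM with DHT, and KRT5, TP63 and CD3E were listed at 0 in every DHT and enzalutamide sample.

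Between DHT and enzalutamide, 2122 of 10916 genes (19.4%) were called by edgeR's quasi-likelihood test at an adjusted p of at most 0.05, of which 1125 (10.3%) were higher with DHT and 997 (9.13%) were lower. limma on FPKM called 6904 of 12029 genes (57.4%), 2515 (20.9%) higher and 4389 (36.5%) lower. Centring each sample on its median turned the FPKM split to 3546 higher and 3273 lower, so the excess of lower genes rests on the scaling. Both measures called 1929 genes in the same direction, 1020 higher and 909 lower. Against vehicle, edgeR called 4122 of 11004 genes with DHT (37.5%) and 808 of 11131 with enzalutamide (7.26%, with 4.38% higher and 2.87% lower). With DHT 19.4% were higher and 18.1% lower. limma on FPKM called 38.7% of genes between enzalutamide and vehicle, 19.3% higher and 19.3% lower. The 3 comparisons share samples.

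Genes were then sorted by how far enzalutamide moved them. A gene was DHT-restricted where DHT was called apart from both enzalutamide and vehicle in the same direction and the whole 95% interval of the enzalutamide effect lay within 1.5-fold of vehicle. It was graded where all 3 contrasts were called in one direction, so that enzalutamide moved it and DHT moved it further. Of 10659 genes tested in all 3 contrasts, 564 were DHT-restricted and higher with DHT (5.29%), 421 DHT-restricted and lower (3.95%), 209 graded and higher (1.96%) and 146 graded and lower (1.37%). Of the DHT-restricted genes, 525 of 564 and 396 of 421 were also called between the ligands by FPKM in the same direction. Enzalutamide moved 18 genes while DHT stayed within 1.5-fold of vehicle, of which 3 (0.0281%) were higher with DHT than with enzalutamide and 15 (0.141%) lower. The ligands moved 5 genes in opposite directions, 2 (0.0188%) higher with DHT and 3 (0.0281%) lower. The interval rule favours genes with many reads: the median vehicle level was 29.1 FPKM for the higher DHT-restricted genes and 10.6 FPKM for all genes tested between the ligands. Restricted means a bounded enzalutamide effect and not its absence, since 20 of the 564 and 15 of the 421 were also called between enzalutamide and vehicle. Without enzalutamide replicate 2, 561 DHT-restricted and 217 graded genes were left in both directions together, against 985 and 355 with it.

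**Figure D1:**
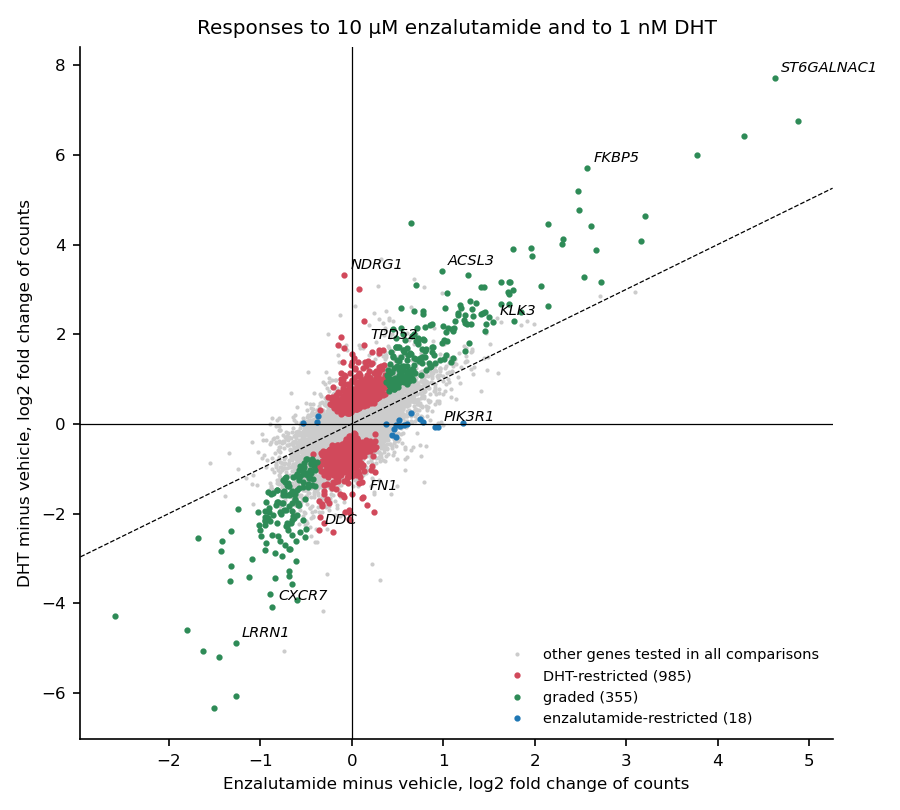
Each point is a gene tested in all 3 contrasts, with the log2 fold change of counts against vehicle for 10 µM enzalutamide on the x axis and for 1 nM DHT on the y axis; the dashed line marks equal effects. DHT-restricted genes (985, red) stand above and below 0 on the x axis, graded genes (355, green) lie along a line steeper than equal effects, and the 18 enzalutamide-restricted genes (blue) lie near 0 on the y axis.

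The endoplasmic reticulum (ER) folding machinery was the list with the most DHT-restricted members. The ER folds and quality-checks proteins bound for secretion, and the unfolded protein response adjusts its chaperones through the sensors IRE1 (gene ERN1), ATF6 and PERK. A sequence through which ATF6 and XBP1 act, the ER stress response element, was looked for as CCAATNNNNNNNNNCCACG on both strands of the RefSeq promoters of GRCh38.p14, from 250 bases before to 50 bases after the gene start. It stood in 22 of 27305 promoters (0.0806%). It stood in 6 of the 35 promoters matched from the ER list (17.1%), and all 6 genes were DHT-restricted and higher with DHT. The list is made of genes of the unfolded protein response, which this element serves, and was chosen with earlier results known. Its larger share is therefore no test. The stretches of the 6 genes are shown because the element stood in more of the ER list than of all promoters. The stretches are written 5′ to 3′ on the strand of the gene, with the element or its reverse complement in capitals. They lie at chr9:125241361-125241439 (minus strand) for HSPA5, chr12:103930186-103930369 (plus) for HSP90B1, chr19:12938359-12938432 (plus) for CALR, chr5:179698748-179698826 (plus) for CANX, chr22:28800573-28800651 (minus) for XBP1 and chr22:49918524-49918602 (plus) for CRELD2.
HSPA5: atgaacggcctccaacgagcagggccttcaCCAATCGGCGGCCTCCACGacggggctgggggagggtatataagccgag
HSP90B1: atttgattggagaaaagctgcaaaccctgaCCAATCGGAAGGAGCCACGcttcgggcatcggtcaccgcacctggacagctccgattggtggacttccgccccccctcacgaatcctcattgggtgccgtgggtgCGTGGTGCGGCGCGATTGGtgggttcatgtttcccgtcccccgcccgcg
CALR: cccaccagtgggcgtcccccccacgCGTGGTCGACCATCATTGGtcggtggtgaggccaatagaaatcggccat
CANX: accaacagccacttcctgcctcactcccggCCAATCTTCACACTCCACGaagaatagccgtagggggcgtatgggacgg
XBP1: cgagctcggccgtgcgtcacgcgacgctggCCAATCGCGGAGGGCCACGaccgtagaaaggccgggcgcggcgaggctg
CRELD2: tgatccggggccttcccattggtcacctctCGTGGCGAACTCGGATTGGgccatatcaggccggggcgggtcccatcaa

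In the promoters of the classes the element stood in 7 of 447 higher DHT-restricted genes (1.57%) and in none of the 315 lower DHT-restricted, 157 higher graded or 99 lower graded genes. The seventh was SERP1, which stabilises membrane proteins in the ER, and the others were the ER list genes shown above. Of the 22 genes with the element 12 were tested. By edgeR 9 of these were higher with DHT than with enzalutamide and 0 lower, also at an unadjusted p of at most 0.05. Over all genes tested 10.3% were higher. The 9 include the ER list genes shown above, so they are not separate evidence. The other genes tested, ALG12, EIF2A and TMEM120A, were not called, and the windows of ALG12 and EIF2A overlap those of CRELD2 and SERP1, so that each pair shares its element. The palindromic androgen response element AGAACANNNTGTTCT stood in 1 of 27305 promoters (0.00366%) and in none of the class promoters, and AGAACA alone stood in 14.9% of all promoters, 9.84% of the higher DHT-restricted and 8.92% of the higher graded ones. A match is a run of letters in this window and not a measured binding site.

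By edgeR, 31 of the 38 tested ER genes stood higher under DHT than under enzalutamide and 0 lower, with a median log2 difference of 0.59 against -0.02 over all genes tested. At an unadjusted p of at most 0.05 the counts were 32 and 0. Of all genes tested 10.3% were higher and 9.13% lower by edgeR. Of the 31, 20 were DHT-restricted and 5 graded. FPKM gave 35 of 39 higher, 1 lower and a median of 0.46. HSPA5 (BiP), the central ER chaperone, stood at 135.8, 146.6 and 146.4 FPKM with vehicle, 156.3, 156.1 and 170.4 FPKM with enzalutamide and 213.4, 214.5 and 221 FPKM with DHT. Every DHT sample was above every other sample. Its log2 difference between the ligands was 0.50 (SE 0.08, adjusted p = 0.00011, edgeR), and the 95% interval of the enzalutamide effect ran from 0.02 to 0.38. HSP90B1, the ER member of the HSP90 family, was at 398, 393.7 and 436 FPKM with enzalutamide and 558.1, 549.2 and 555.7 FPKM with DHT. HSPA5 and HSP90B1 were named outside the rule by which most genes were chosen.

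By edgeR the largest differences in the list were those of ERN1, CREB3L4 and SSR3, followed by DERL3, a factor of ER-associated degradation, and PDIA5. ERN1, the kinase and endonuclease that splices XBP1 mRNA, was at 3.72, 3.57 and 3.56 FPKM with vehicle, 4.99, 4.97 and 5.50 FPKM with enzalutamide and 12.5, 11.7 and 12.4 FPKM with DHT. Its log2 difference between the ligands was 1.56 (SE 0.16, adjusted p = 4.7e-07, edgeR). CREB3L4, an ER-bound transcription factor found at high levels in prostate, was at 33.2, 36.0 and 36.6 FPKM with vehicle, 38.1, 38.6 and 35.4 FPKM with enzalutamide and 90.5, 88.8 and 92.9 FPKM with DHT. The vehicle and enzalutamide samples overlapped for CREB3L4, while DHT was higher by 1.30 on the log2 scale (SE 0.11, adjusted p = 1.6e-08, edgeR). SSR3, a subunit of the translocon-associated protein complex, and PDIA5, a disulfide isomerase, were graded. PDIA5 was at 15.56, 15.41 and 14.99 FPKM with vehicle, 31.3, 28.3 and 28.6 FPKM with enzalutamide and 62.7, 60.8 and 63.5 FPKM with DHT.

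Not every member was called. ATF6, ERP29, SEL1L, EDEM1, EDEM3, DERL1 and DERL2 were not called between the ligands by edgeR, and they are named here after their values were seen. Of these, limma on FPKM called EDEM3, DERL1 and DERL2 higher with DHT and SEL1L lower. ATF6 stood at 7.22, 7.50 and 7.58 FPKM with enzalutamide and 7.39, 7.37 and 7.55 FPKM with DHT, which overlapped. Among genes of the list with no exon overlapping the opposite strand, 14 of 17 were higher and 0 lower. Enzalutamide against vehicle was called higher for 10 of 37 members and lower for 1 by edgeR, with a median of 0.21. Over all genes edgeR called 4.38% higher and 2.87% lower. limma on FPKM called 26 of 39 higher with enzalutamide and 1 lower, with a median of 0.25, where 19.3% of all genes were higher.

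**Figure D2:**
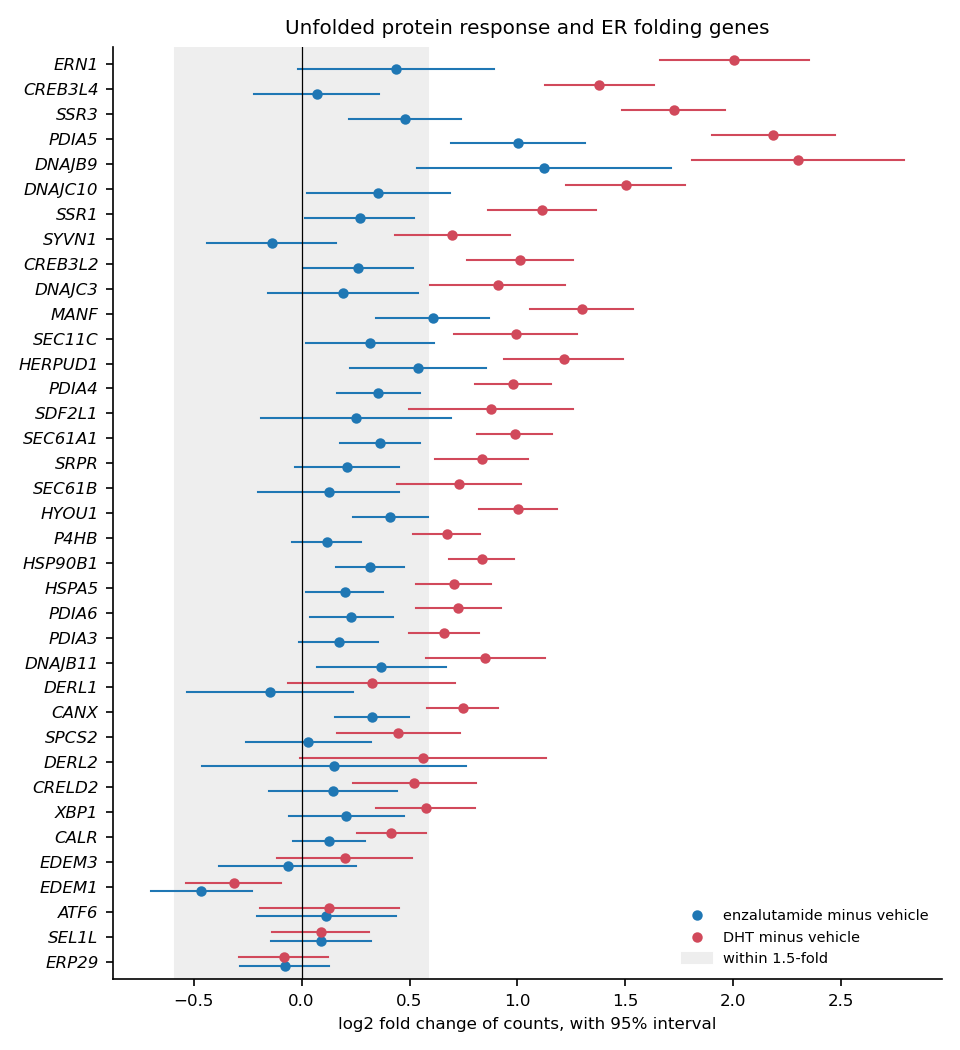
For each ER folding and unfolded protein response gene the log2 fold change of counts against vehicle is plotted with its 95% interval for enzalutamide (blue) and DHT (red), and the grey band marks effects within 1.5-fold. Genes are ordered by the DHT minus enzalutamide difference; most red points lie beyond the band and most blue points inside it, and ATF6, SEL1L and ERP29 at the bottom have both points close together.

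Among DHT-restricted genes chosen for the size of their DHT effect, NDRG1, a stress- and differentiation-associated gene long used as an androgen response marker, changed most. It stood at 19.8, 19.8 and 20.3 FPKM with vehicle, 18.6, 19.4 and 19.3 FPKM with enzalutamide and 183, 195 and 196.3 FPKM with DHT. All enzalutamide samples were below all vehicle samples, by little, and all DHT samples were far above both. The difference between ligands was 10.5-fold (log2 3.39, SE 0.11, adjusted p = 1.9e-14, edgeR), and the enzalutamide effect had a 95% interval of -0.35 to 0.18 on the log2 scale. MICAL1, an enzyme that oxidises actin filaments, went from 4.31, 4.49 and 3.87 FPKM with enzalutamide to 25.7, 26.9 and 26.1 FPKM with DHT, with vehicle at 4.10, 4.30 and 3.92 FPKM. TPD52, a vesicle trafficking protein amplified in prostate cancer, was at 24.9, 26.4 and 24.6 FPKM with vehicle, 27.9, 27.5 and 28.5 FPKM with enzalutamide and 82.4, 78.6 and 75.6 FPKM with DHT. ACAD8, a mitochondrial enzyme of valine breakdown, TNFRSF10B, a death receptor for TRAIL, and FAM115A had log2 differences between the ligands of 1.90, 1.33 and 1.29. Enzalutamide also raised FAM115A, by 0.34 on the log2 scale (adjusted p = 0.048, edgeR). By FPKM enzalutamide was called above vehicle for FAM115A, TNFRSF10B and TPD52 (adjusted p = 0.00022, 0.00045 and 0.031, limma). VPS26B, a subunit of the retromer, had a log2 difference of 2.92 in counts but 1.11 in FPKM, and its exons overlap those of another gene on the opposite strand, so its size is uncertain.

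The keratins of the luminal cytoskeleton followed DHT alone within these bounds. KRT8 was at 179.8, 187.5 and 187.8 FPKM with vehicle, 178.7, 171 and 169.5 FPKM with enzalutamide and 496.3, 522.1 and 550 FPKM with DHT. Its partner KRT18 was at 185, 194.2 and 191.1 FPKM with vehicle, 209, 199.7 and 189.5 FPKM with enzalutamide and 476.2, 504.9 and 522.6 FPKM with DHT. For both genes every DHT sample was above every vehicle and enzalutamide sample. The log2 differences between the ligands were 1.47 for KRT8 (SE 0.09) and 1.37 for KRT18 (SE 0.08), with adjusted p of 5.7e-10 and 2.3e-10 by edgeR. The 2 genes lie beside each other on chromosome 12 on opposite strands with overlapping ends, and both rose by FPKM as well.

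Lipid genes divided between the classes. Of 23 tested genes of fatty acid synthesis and activation, 11 (47.8%) were higher with DHT and 2 (8.70%) lower by edgeR, with a median of 0.39. Of all genes tested 10.3% were higher and 9.13% lower. In this list 6 genes were DHT-restricted and 4 graded. FASN, the fatty acid synthase, was at 170.5, 167.8 and 162.4 FPKM with vehicle, 209.8, 202.4 and 177.1 FPKM with enzalutamide and 487.5, 496.1 and 485.8 FPKM with DHT. The difference between the ligands was 1.36 on the log2 scale (SE 0.08, adjusted p = 1.6e-10, edgeR). FADS2, the first desaturase of polyunsaturated fatty acids, was at 47.8, 45.7 and 43.9 FPKM with enzalutamide, just under vehicle at 49.7, 51.7 and 49.2 FPKM, and at 150.8, 148.6 and 152.4 FPKM with DHT. By FPKM enzalutamide was called below vehicle for FADS2. ACACA, the carboxylase that supplies FASN, was graded, with mean log2 effects against vehicle of 0.64 for enzalutamide and 1.55 for DHT.

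Of 23 tested cholesterol synthesis genes, 9 (39.1%) were higher with DHT and 1 (4.35%) lower by edgeR, with a median of 0.37. Of all genes tested 10.3% were higher and 9.13% lower. FDFT1, the first enzyme committed to sterols, was DHT-restricted, with a log2 difference between the ligands of 0.89. TM7SF2, a sterol reductase, fell: it was at 149.1, 149.7 and 146.5 FPKM with vehicle, 113.2, 114.1 and 103.2 FPKM with enzalutamide and 65.2, 66.7 and 69.9 FPKM with DHT. Among the 10 cholesterol genes with no opposite-strand exon overlap, 2 were higher and 1 lower with a median of 0.12.

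Protein glycosylation and secretion genes were higher with DHT for 16 of 27 (59.3%) and lower for 2 (7.41%) by edgeR, with a median of 0.51. Of all genes tested 10.3% were higher and 9.13% lower. UAP1, which makes the sugar donor UDP-N-acetylglucosamine, was graded, at 73.5, 73.9 and 78.1 FPKM with enzalutamide and 167.4, 161.6 and 161.8 FPKM with DHT. ST3GAL1, a sialyltransferase, went the other way in both ligands, from 93.7, 92.9 and 95.5 FPKM with vehicle to 51.1, 51.4 and 52.8 FPKM with enzalutamide and 15.6, 15.3 and 14.9 FPKM with DHT. Of 12 polyamine genes, 5 (41.7%) were higher with DHT and 0 lower by edgeR (6 and 1 at an unadjusted p of at most 0.05). By limma on FPKM 5 of 14 were called higher and 2 lower. SAT1, which acetylates polyamines for breakdown or export, was among those higher by edgeR (log2 2.02, SE 0.15, adjusted p = 2.9e-09). ODC1, the rate-limiting enzyme of polyamine synthesis, was DHT-restricted, at 178.6, 189 and 199.6 FPKM with vehicle, 224.2, 210.8 and 222.3 FPKM with enzalutamide and 508, 501.6 and 517.3 FPKM with DHT. SMS, the spermine synthase, was graded, at 84.7, 91.4 and 95.9 FPKM with vehicle, 145.4, 142.7 and 155.2 FPKM with enzalutamide and 742.6, 768.8 and 794 FPKM with DHT. The SMS difference between the ligands was 5.26-fold (log2 2.40, SE 0.08, adjusted p = 7.5e-14, edgeR).

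**Figure D3:**
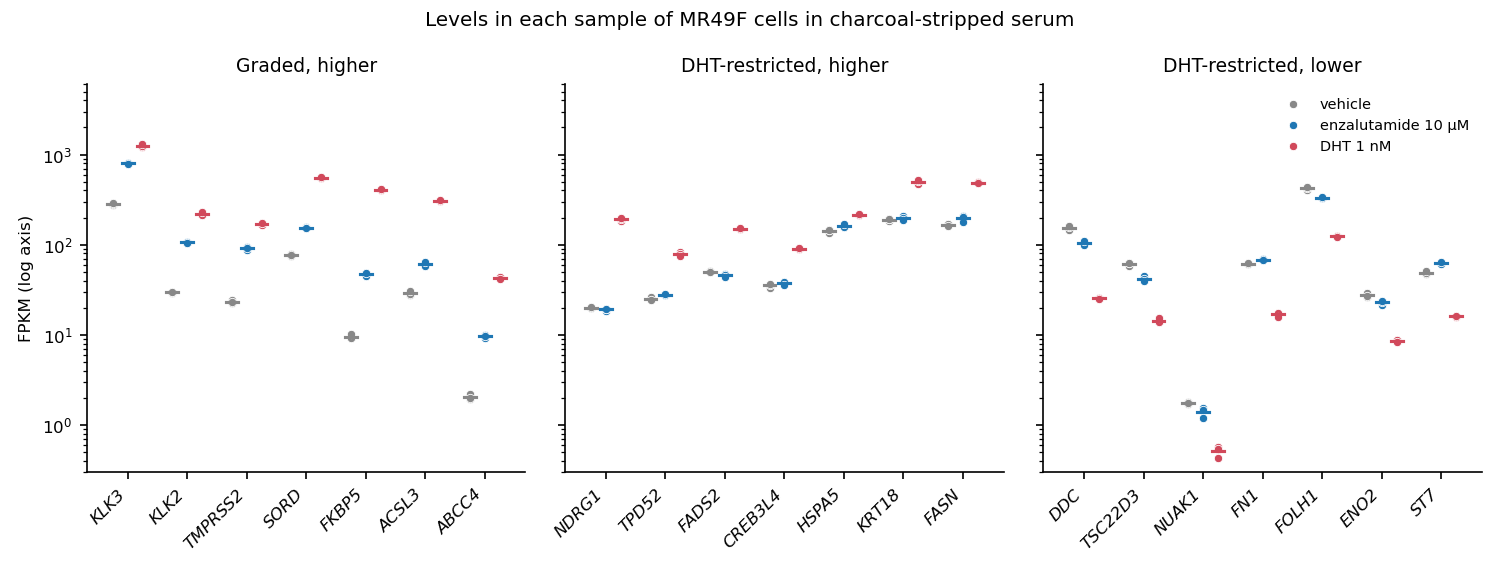
FPKM of each sample on a log axis, with 3 points per group and a bar at the group mean, for 7 genes of the higher graded class, 7 of the higher and 7 of the lower DHT-restricted class. Vehicle (grey) and enzalutamide (blue) lie close together in the restricted panels and apart in the graded panel, and DHT (red) lies apart from both in all 3 panels.

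Most classical androgen-induced genes were graded. Of 29 tested, 24 (82.8%) were higher with DHT than with enzalutamide and 1 (3.45%) lower, with a median of 1.22, and 18 were graded and 1 was DHT-restricted. Of all genes tested 10.3% were higher and 9.13% lower. Against vehicle, DHT raised 28 of 29 classical targets and enzalutamide 20 of 23 by edgeR, and 0 were lower with either ligand. Over all genes 19.4% were higher with DHT and 4.38% with enzalutamide. KLK3 was at 276.5, 282.4 and 288.8 FPKM with vehicle, 793.6, 809.9 and 795.7 FPKM with enzalutamide and 1212, 1235 and 1327 FPKM with DHT. The 3 groups did not overlap. Enzalutamide raised KLK3 by 1.54 on the log2 scale (95% interval 1.37 to 1.72) and DHT exceeded enzalutamide by 0.73 (SE 0.07, adjusted p = 4.3e-07, edgeR). KLK2, the neighbouring kallikrein, was at 28.9, 29.6 and 30.1 FPKM with vehicle, 105.7, 107.6 and 105.3 FPKM with enzalutamide and 213.6, 212.6 and 229.8 FPKM with DHT.

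Single targets had steps of several sizes from enzalutamide to DHT. TMPRSS2, a membrane serine protease, was at 22.4, 24.4 and 23.1 FPKM with vehicle, 95.2, 88.2 and 91.1 FPKM with enzalutamide and 167.7, 166.5 and 176 FPKM with DHT. FKBP5, a chaperone of steroid receptors on chromosome 6 (35541362 to 35696360, GRCh37, minus strand), was at 49.0, 45.5 and 48.2 FPKM with enzalutamide against 400.4, 405.3 and 420.6 FPKM with DHT and 9.21, 9.14 and 10.2 FPKM with vehicle. DHT exceeded enzalutamide by 3.12 on the log2 scale for FKBP5 (SE 0.09) and by 1.00 for TMPRSS2 (SE 0.10). ACSL3, which activates fatty acids, and SORD, the sorbitol dehydrogenase, had differences of 2.42 and 1.88. Whether the steps of these genes differ from each other was not tested.

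Of the 8 higher graded genes with the largest DHT effects, 6 averaged under 1 FPKM with vehicle, and FKBP5 and ABCC4 stood above that. ST6GALNAC1, a sialyltransferase, was at 0.33, 0.31 and 0.32 FPKM with vehicle, 5.56, 4.97 and 4.85 FPKM with enzalutamide and 40.9, 43.0 and 44.8 FPKM with DHT. MYBPC1, a myosin-binding protein, was at 0.79, 0.91 and 1.01 FPKM with vehicle, 12.7, 11.5 and 12.2 FPKM with enzalutamide and 58.5, 58.9 and 60.9 FPKM with DHT. ABCC4, an organic anion and cyclic nucleotide exporter, was at 1.935, 2.222 and 2.001 FPKM with vehicle, 9.30, 10.0 and 9.72 FPKM with enzalutamide and 44.4, 43.4 and 41.8 FPKM with DHT. CHRNA2, a nicotinic acetylcholine receptor subunit, SPOCK1, a secreted proteoglycan, SLC15A2, a peptide transporter, and AFF3, a transcription elongation factor, had log2 differences between the ligands of 2.12, 2.71, 1.89 and 1.41. NCAPD3, a condensin II subunit, was at 14.2, 14.1 and 14.3 FPKM with enzalutamide and 180.9, 173.9 and 172.9 FPKM with DHT, and its neighbours JAM3 and VPS26B overlap it on the opposite strand. JAM3, a junctional adhesion molecule, had a log2 difference between the ligands of 3.34 in counts and 0.93 in FPKM, so its size is uncertain.

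A further set of genes had few reads with vehicle and enzalutamide and is outside the classes because edgeR did not test it between those groups. SGK1, a kinase induced by several steroid hormones, was at 1.01, 1.23 and 1.18 FPKM with vehicle, 0.97, 1.04 and 1.21 FPKM with enzalutamide and 18.2, 18.8 and 18.3 FPKM with DHT. limma on FPKM did test SGK1 between enzalutamide and vehicle and did not call it (adjusted p = 0.69). The enzalutamide samples held 3 reads of SGK1 in all and the DHT samples 123, a ratio of 44.7 after library scaling with a 95% counting interval of 14.9 to 220. STEAP4, a metalloreductase, was at 0.11, 0.06 and 0.10 FPKM with enzalutamide and 9.22, 8.68 and 8.77 FPKM with DHT. ORM1, an acute-phase plasma protein, was at 0.67, 0.70 and 0.78 FPKM with enzalutamide and 14.1, 17.6 and 18.7 FPKM with DHT, on 2 and 40 reads, a ratio of 21.8 (5.65 to 186). MYOF, a membrane repair protein, had 2 reads in the enzalutamide samples and 61 in the DHT samples, a ratio of 33.2 (8.81 to 281). UGT2B28, which conjugates steroids, had 3 and 43, a ratio of 15.6 (5 to 78.7). TBX15, a T-box factor, was at 0.22, 0.27 and 0.40 FPKM with enzalutamide and 4.14, 4.41 and 4.03 FPKM with DHT. C6orf52 stands apart from these genes, with a log2 difference between the ligands of 3.93 in counts and 0.56 in FPKM. It was at 1.788, 1.45 and 2.096 FPKM with vehicle, 1.16, 1.03 and 1.05 FPKM with enzalutamide and 2.23, 2.30 and 1.70 FPKM with DHT. Its vehicle and DHT samples overlapped by FPKM (log2 0.15, adjusted p = 0.24, limma), where enzalutamide was below vehicle (log2 -0.41, adjusted p = 0.007, limma). Counting intervals and ratios cover counting error only.

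DNA replication genes were higher than vehicle with both ligands, and fewer of them were called between the ligands. Of 46 DNA replication genes, edgeR called 11 higher with DHT and 0 lower against enzalutamide (17 and 0 at an unadjusted p of at most 0.05; limma on FPKM called 22 higher and 2 lower), with a median of 0.25, and none was DHT-restricted while 10 were graded. Against vehicle 32 of 45 (71.1%) rose with DHT and 26 of 45 (57.8%) with enzalutamide by edgeR, where 19.4% and 4.38% of all genes did. Between the ligands 10.3% of all genes were higher with DHT. CDC6, which loads the replicative helicase, was at 4.78, 5.86 and 5.46 FPKM with vehicle, 14.8, 14.4 and 15.1 FPKM with enzalutamide and 23.9, 23.5 and 24.0 FPKM with DHT. RRM2, a ribonucleotide reductase subunit, was at 8.28, 9.75 and 8.84 FPKM with vehicle, 20.9, 18.8 and 19.6 FPKM with enzalutamide and 29.3, 28.0 and 29.0 FPKM with DHT. GMNN, the inhibitor of helicase loading, and MCM7, a helicase subunit, had log2 differences between the ligands of 0.87 and 0.44. E2F1, a transcription factor of S-phase genes, was at 8.03, 8.51 and 7.96 FPKM with vehicle, 14.5, 13.9 and 13.1 FPKM with enzalutamide and 18.4, 18.0 and 18.3 FPKM with DHT.

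Of 44 mitosis genes, edgeR called 4 higher with DHT and 0 lower (7 and 2 at an unadjusted p of at most 0.05; limma on FPKM called 14 of 46 higher and 2 lower), with a median of 0.05, and 19 had an interval within 1.5-fold. The share called higher, 9.09%, was near the 10.3% of all genes. Against vehicle 20 of 42 (47.6%) rose with DHT and 8 of 43 (18.6%) with enzalutamide by edgeR, where 19.4% and 4.38% of all genes did. MKI67, the proliferation marker Ki-67, was at 7.65, 7.57 and 7.91 FPKM with vehicle, 14.2, 13.0 and 13.3 FPKM with enzalutamide and 16.4, 17.3 and 16.2 FPKM with DHT. CDK1, the mitotic kinase, was at 52.1, 53.5 and 55.1 FPKM with enzalutamide and 78.6, 71.3 and 74.0 FPKM with DHT. Of 20 regulators of entry into S phase, 2 were higher with DHT and 0 lower by edgeR (2 and 2 at an unadjusted p of at most 0.05; limma on FPKM called 7 of 22 higher and 5 lower), which is also near the share over all genes. Against vehicle edgeR called 5 of 20 of them higher and 3 lower with DHT, and 2 of 19 higher and 1 lower with enzalutamide. Over all genes 19.4% were higher and 18.1% lower with DHT, and 4.38% and 2.87% with enzalutamide. Of 40 ribosome biogenesis genes, 17 were higher and 0 lower by edgeR (21 and 0 at an unadjusted p of at most 0.05; limma on FPKM called 29 of 41 higher and 2 lower), with a median of 0.29, and 10 were graded. Among them NCL, the nucleolar protein nucleolin, was at 295.3, 277.6 and 301.3 FPKM with enzalutamide and 364.5, 374.2 and 397.8 FPKM with DHT, with vehicle at 193.7, 209.2 and 214.8 FPKM.

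The subunits of oxidative phosphorylation were a list that edgeR did not set apart. SDHA, a subunit of complex II, was the 1 of 46 called, and it was lower with DHT by 0.31 on the log2 scale (SE 0.10, adjusted p = 0.046, edgeR). The intervals of 41 of the 46 lay within 1.5-fold, while limma on FPKM called 3 of 47 higher and 21 lower. Over all genes limma on FPKM called 20.9% higher and 36.5% lower, an excess of lower genes that rests on the scaling. Of 23 glycolysis genes, 5 (21.7%) were higher with DHT and 3 (13.0%) lower by edgeR, against 10.3% and 9.13% of all genes tested. The counts were 9 and 4 at an unadjusted p of at most 0.05, and limma on FPKM called 10 of 25 higher and 6 lower. HK1, the first enzyme of glycolysis, was DHT-restricted, at 32.0, 32.1 and 32.8 FPKM with vehicle, 32.7, 33.8 and 31.4 FPKM with enzalutamide and 53.9, 53.5 and 54.6 FPKM with DHT. LDHA, a lactate dehydrogenase, was graded, with a log2 difference between the ligands of 0.55. Of 33 genes of the ATF4 amino acid response, another arm of stress signalling, 8 were higher and 0 lower by edgeR (11 and 1 at an unadjusted p of at most 0.05; limma on FPKM called 11 higher and 4 lower), with a median of 0.14 and 23 intervals within 1.5-fold. Of the 13 with no opposite-strand exon overlap edgeR called 0 (2 higher and 1 lower at an unadjusted p of at most 0.05), with a median of -0.04. Of the 8 called, 5 were tRNA synthetases, which charge tRNAs with amino acids, among them WARS and TARS.

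**Figure D4:**
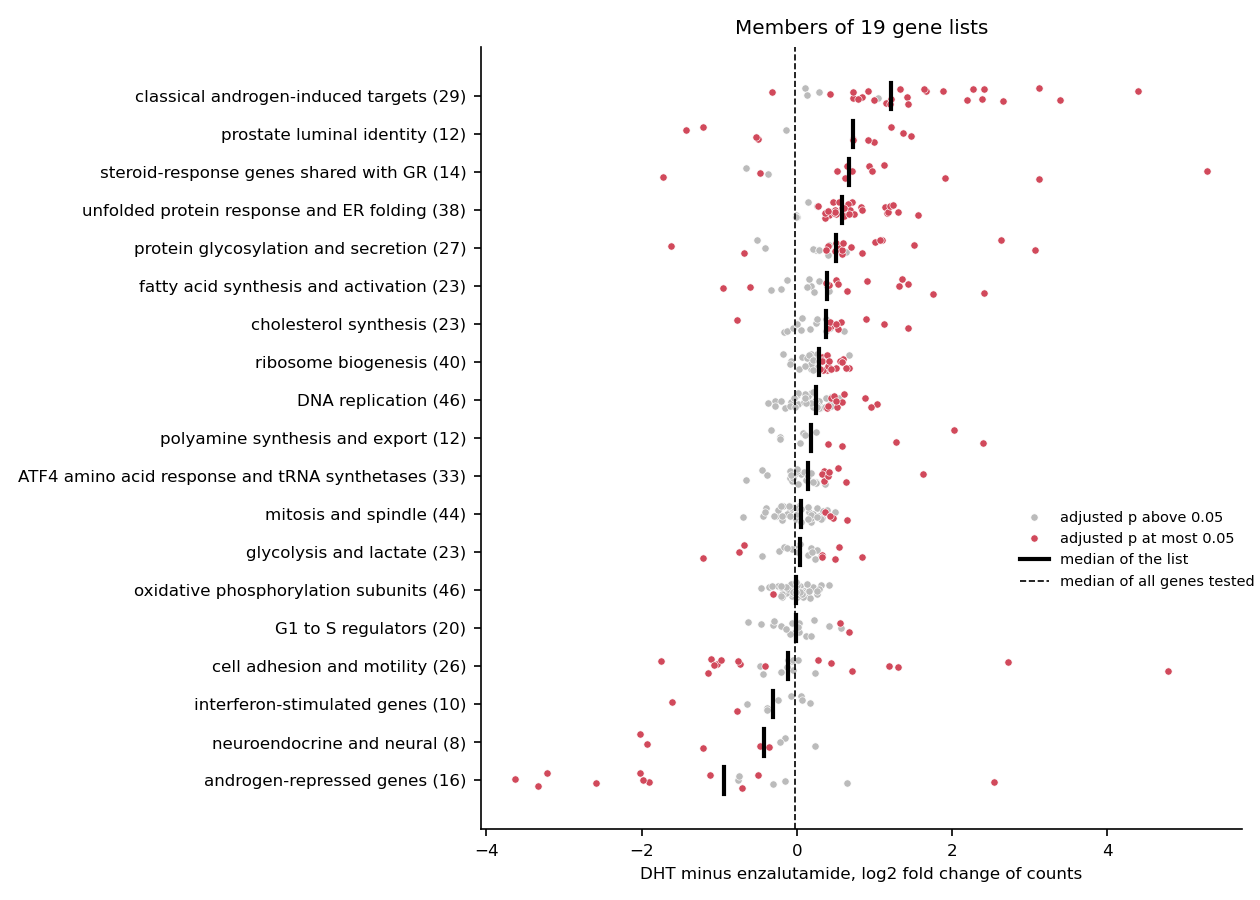
Each point is a gene of one of 19 lists, placed by its log2 difference in counts between DHT and enzalutamide; red points passed an adjusted p of 0.05, black bars mark list medians and the dashed line the median of all 10916 genes tested. Classical androgen targets have a median of 1.22 and ER folding genes 0.59, the oxidative phosphorylation subunits lie around -0.01, and androgen-repressed genes have a median of -0.94.

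Genes lower with DHT included DHT-restricted and graded members. Of 16 tested androgen-repressed genes, 10 were lower with DHT than with enzalutamide and 1, TIPARP, was higher, with a median of -0.94. Of all genes tested 9.13% were lower and 10.3% higher. CAMK2N1, an inhibitor of the kinase CaMKII, was graded, at 177.7, 183.8 and 168.4 FPKM with vehicle, 105.7, 106.2 and 108.5 FPKM with enzalutamide and 16.8, 17.1 and 17.3 FPKM with DHT. DDC, the decarboxylase that makes dopamine and serotonin, was DHT-restricted by counts, with an enzalutamide interval of -0.56 to -0.16, at 146.6, 155.6 and 162 FPKM with vehicle, 105.2, 100.3 and 109.5 FPKM with enzalutamide and 25.6, 25.59 and 25 FPKM with DHT. By FPKM DDC was graded. LRRN1, a leucine-rich repeat membrane protein, was at 33.4, 33.9 and 35.4 FPKM with vehicle, 13.9, 13.7 and 14.4 FPKM with enzalutamide and 1.07, 1.10 and 1.27 FPKM with DHT. CXCR7, a scavenging chemokine receptor, was at 20.4, 20.1 and 20.2 FPKM with vehicle, 9.53, 9.17 and 9.50 FPKM with enzalutamide and 0.92, 1.05 and 0.80 FPKM with DHT. OPRK1, the kappa opioid receptor, was at 7.03, 7.22 and 7.42 FPKM with enzalutamide and 0.73, 0.74 and 0.88 FPKM with DHT.

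Several genes fell to few reads with DHT. PLD1, a phospholipase D, was at 6.66, 7.68 and 8.10 FPKM with vehicle, 3.07, 2.78 and 3.15 FPKM with enzalutamide and 0.24, 0.26 and 0.29 FPKM with DHT, and its reads numbered 72 with enzalutamide and 2 with DHT, a ratio of 33 (95% counting interval 8.82 to 278). IL1RN, the interleukin-1 receptor antagonist, was at 14.51, 14.04 and 14.24 FPKM with vehicle, 6.81, 6.94 and 5.67 FPKM with enzalutamide and 0.81, 0.90 and 0.99 FPKM with DHT. ADRA2A, an alpha-2 adrenergic receptor, was at 5.067, 5.094 and 4.998 FPKM with vehicle, 6.12, 6.07 and 5.80 FPKM with enzalutamide and 0.69, 0.75 and 0.69 FPKM with DHT. Reads of IL1RN numbered 51 with enzalutamide and 2 with DHT, a ratio of 23.4 (6.16 to 199). CCDC80 had 48 and 3, a ratio of 14.7 (4.73 to 73.7), and VWA2 had 41 and 1, a ratio of 37.6 whose interval began at 6.39. DAB1, an adaptor of reelin signalling, CD200, an immune inhibitory ligand, and LPPR1 had log2 differences in counts of -3.86, -3.45 and -3.37.

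Among the DHT-restricted genes that fell, FN1, the matrix protein fibronectin, was at 61.3, 60.4 and 62.1 FPKM with vehicle, 67.0, 69.6 and 67.4 FPKM with enzalutamide and 17.2, 17.7 and 15.7 FPKM with DHT. DHT lay below enzalutamide by 1.75 on the log2 scale (SE 0.09, adjusted p = 2.3e-11, edgeR). The edgeR interval of the enzalutamide effect on FN1 was -0.04 to 0.29, and the FPKM fit called enzalutamide above vehicle and DHT below it. FOLH1, prostate-specific membrane antigen, was at 404.7, 422.2 and 439.3 FPKM with vehicle, 332.1, 327.9 and 342 FPKM with enzalutamide and 125.6, 123.8 and 121.7 FPKM with DHT. NIPSNAP3A, a NIPSNAP family protein, was at 323, 333 and 304.9 FPKM with vehicle, 267.3, 275.9 and 264 FPKM with enzalutamide and 60.7, 58.6 and 60.6 FPKM with DHT. AIDA, an axin partner, TSC22D3 (GILZ), a glucocorticoid-induced leucine zipper protein, NUAK1, an AMPK-related kinase, and KIAA1462, a junction protein, had log2 differences between the ligands of -1.92, -1.73, -1.97 and -2.10. By FPKM TSC22D3 was graded, at 42.0 FPKM on average with enzalutamide and 61.8 FPKM with vehicle. DUSP18 and ST7-AS1 overlap genes on the opposite strand, and their differences of -2.13 and -2.23 in counts were -0.42 and -0.97 in FPKM.

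Adhesion genes moved in both directions, with 7 of 26 (26.9%) higher and 9 (34.6%) lower with DHT by edgeR. Of all genes tested 10.3% were higher and 9.13% lower. ITGAV, the integrin alpha-V chain, was DHT-restricted and higher, at 13, 14.5 and 14.9 FPKM with enzalutamide and 38.9, 35.9 and 33.6 FPKM with DHT. LAMC1, the laminin gamma-1 chain, was graded and higher, by 1.18 on the log2 scale between the ligands. CALD1, an actin-binding protein of contractile cells, was lower, at 170.2, 183 and 188.4 FPKM with enzalutamide and 73.4, 69.2 and 67.2 FPKM with DHT. Of 8 tested neuroendocrine and neural genes, 5 were lower with DHT and 0 higher by edgeR, also at an unadjusted p of at most 0.05, while limma on FPKM called 6 lower and 1 higher. ENO2, neuron-specific enolase, was at 21.5, 23.3 and 23.8 FPKM with enzalutamide and 8.68, 8.70 and 8.43 FPKM with DHT. Of 10 tested interferon-stimulated genes, 2 were lower with DHT and 0 higher by edgeR, where 3 and 0 had an unadjusted p of at most 0.05. limma on FPKM called 11 of 17 lower and 0 higher. For both of these lists the FPKM share over all genes was 36.5% lower and 20.9% higher. PARP14, a mono-ADP-ribosyltransferase, was raised by enzalutamide and lowered by DHT, at 4.004, 3.931 and 4.463 FPKM with vehicle, 5.64, 5.62 and 5.69 FPKM with enzalutamide and 2.15, 1.79 and 2.02 FPKM with DHT.

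Few genes followed enzalutamide alone. Of the 18, 15 were raised by enzalutamide to above their DHT level. PIK3R1, the regulatory subunit p85 of PI3-kinase, was at 19.1, 19.5 and 19.9 FPKM with vehicle, 37.2, 36.3 and 39.3 FPKM with enzalutamide and 16.8, 18.2 and 16.7 FPKM with DHT. Enzalutamide raised it by 0.94 on the log2 scale (SE 0.11, adjusted p = 2e-05, edgeR), and every DHT sample was below every vehicle sample. GPR158, a G protein-coupled receptor, was at 4.01, 3.81 and 4.35 FPKM with vehicle, 7.68, 7.94 and 7.46 FPKM with enzalutamide and 3.73, 3.82 and 3.39 FPKM with DHT. FAM117B and RASEF had enzalutamide effects of 0.78 and 0.75. CPT1A, which brings fatty acids into mitochondria for oxidation, was lowered by enzalutamide, at 46.3, 46.2 and 45.8 FPKM with vehicle, 34.6, 33.7 and 31.2 FPKM with enzalutamide and 46.8, 47.6 and 47.4 FPKM with DHT. SGSM3 and HDGFRP2 were the other genes lowered by enzalutamide within these bounds, with effects of -0.53 and -0.38.

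The classes were then followed in samples that the class rule did not use. With JQ-1 present, DHT against enzalutamide was called by edgeR for 1980 of 10551 genes (18.8%), 10.1% higher and 8.69% lower, and by limma on FPKM for 44.7%, 16.4% higher and 28.2% lower. Of the higher DHT-restricted genes 305 of 563 were again higher with DHT and 4 were lower, with a median of 0.29. Of the lower DHT-restricted genes 184 of 415 were again lower and 3 higher, with a median of -0.32. For the graded genes the counts were 132 of 200 higher with 0 lower (143 and 2 at an unadjusted p of at most 0.05; limma on FPKM called 152 of 200 higher and 2 lower), and 79 of 130 lower with 3 higher. Of genes with no opposite-strand exon overlap, 143 of 267 higher DHT-restricted genes were higher with JQ-1, where 10.9% of all such genes were. ER folding genes were higher for 21 of 37 and lower for 0 by edgeR (26 and 0 at an unadjusted p of at most 0.05), with a median of 0.36, and limma on FPKM called 27 of 38 higher and 1 lower. HSPA5 with JQ-1 was at 131.5, 132.1 and 129.7 FPKM with enzalutamide and 183.6, 190.9 and 189 FPKM with DHT. Ribosome biogenesis genes were higher for 1 of 39 and lower for 2 with JQ-1, and DNA replication genes were higher for 0 of 37 and lower for 1 by edgeR (4 and 4 at an unadjusted p of at most 0.05). Whether these lists differ from their counts without JQ-1 was not tested as a list.

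In full serum, enzalutamide against vehicle was called by edgeR for 1181 of 13927 genes (8.48%), 3.86% higher and 4.62% lower, and by limma on FPKM for 4.6%, 2.51% higher and 2.09% lower. Of the higher DHT-restricted genes 159 of 561 were lower with enzalutamide and 0 higher, with a median of -0.14 (314 and 6 at an unadjusted p of at most 0.05; limma on FPKM called 54 of 559 lower and 0 higher). Of the lower DHT-restricted genes 108 of 414 were higher with enzalutamide and 0 lower, with a median of 0.15 (211 and 6 at an unadjusted p of at most 0.05; limma on FPKM called 68 of 404 higher and 0 lower). Of the higher graded genes 113 of 207 were lower and 0 higher (149 and 6 at an unadjusted p of at most 0.05; limma on FPKM called 64 of 206 lower and 0 higher), and of the lower graded genes 65 of 143 were higher and 1 lower. NDRG1 was at 22.5, 20.8 and 21.6 FPKM with vehicle in full serum and 11.8, 11.4 and 11.3 FPKM with enzalutamide, a log2 change of -0.95 (SE 0.06, adjusted p = 5.8e-06, edgeR). FKBP5 was at 218.4, 206.8 and 201.3 FPKM with vehicle in full serum and 91.9, 91.7 and 89.7 FPKM with enzalutamide. KLK3 was not called there, at 993, 974.3 and 944.9 FPKM with vehicle and 941, 936.8 and 945.5 FPKM with enzalutamide, with a log2 change of -0.09 (SE 0.06, adjusted p = 0.34, edgeR). The full serum count depended on single libraries: it was 2533 without vehicle replicate 1, 642 without vehicle replicate 2, and 453, 455 and 406 without enzalutamide replicate 1, 2 or 3.

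**Figure D5:**
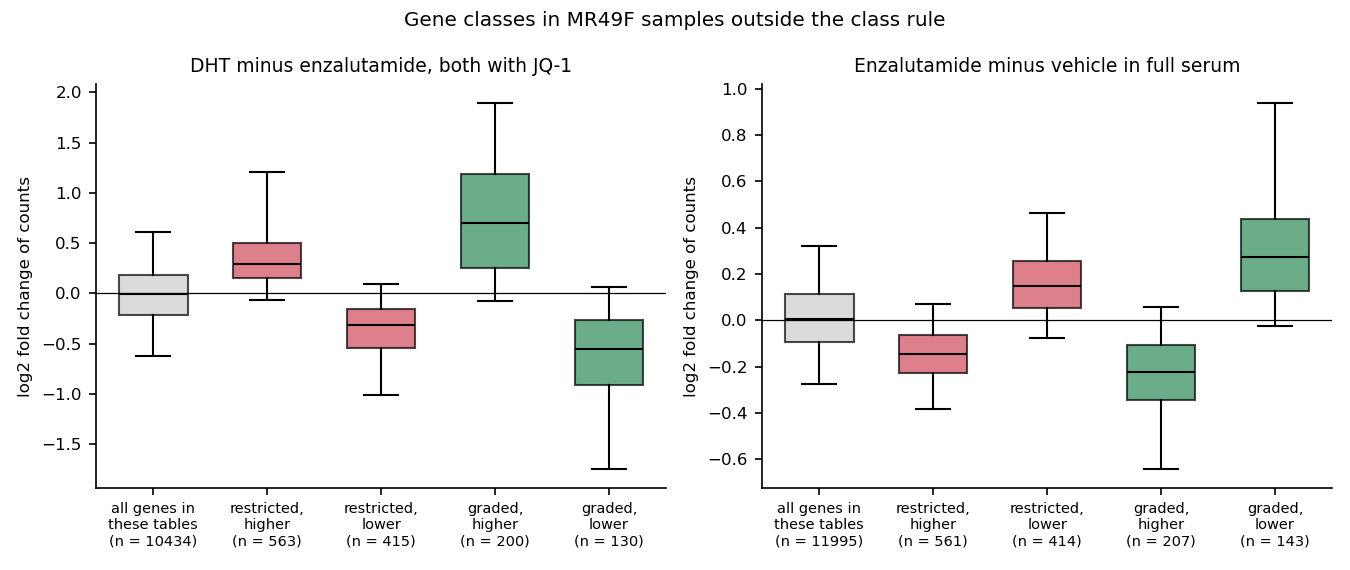
Box plots of log2 fold changes of counts for all genes of the table (grey), DHT-restricted (red) and graded genes (green), with DHT minus enzalutamide under JQ-1 on the left and enzalutamide minus vehicle in full serum on the right. Boxes span the quartiles with a line at the median and whiskers run from the 5th to the 95th percentile; under JQ-1 the classes keep the sign of their medians (0.29 and -0.32 for the restricted, 0.70 and -0.55 for the graded), and in full serum the signs are opposite (-0.14 and 0.15, -0.23 and 0.27).

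COL1A1, the stromal marker above 1 FPKM with enzalutamide, was at 1.29, 1.18 and 1.06 FPKM with enzalutamide and 0.70, 0.62 and 0.73 FPKM with DHT, and its part in the adhesion results was not tested.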

How the data were processed

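Poly-A RNA of MR49F cells was sequenced by the authors with a stranded protocol and 50-base single-end reads, aligned with TopHat2 2.0.9 to hg19. The authors deposited read counts per gene, made with HTSeq (its strand setting is not given in the sources used here), and FPKM per transcript from Cufflinks 2.1.1, deposited per sample. FPKM were summed here by gene symbol. Counts were tested with edgeR 4.0.16 (quasi-likelihood, TMM, filterByExpr with a minimum count of 10) on each pair of groups apart, and log2(FPKM + 1) with limma 3.58.1 for genes that reached 1 FPKM in 3 or more samples, in R 4.3.3. Adjusted p-values are Benjamini-Hochberg over all genes tested, and fold changes of FPKM on the log2(FPKM + 1) scale understate changes of low genes. The scripts were tested on simulated data. Gene coordinates and exon overlaps came from GENCODE on GRCh37 for 9823 of 10916 tested genes, and promoters from RefSeq on GRCh38.p14.

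Groups were taken from the sample labels. The genes named by rule are 6 fixed androgen-regulated genes, the 10 largest differences and the 8 largest DHT effects of each class in each direction, up to 5 genes moved by enzalutamide alone in each direction and up to 4 called genes of each list, all passing the conditions in the text. Further genes, among them HSPA5, HSP90B1, SERP1, DERL3 and TIPARP, were named outside this rule. The counts of named genes given below leave them out. Some genes that met the rule are not reported here. The gene lists, members and classes were chosen with earlier results of these data known. Depth was 1059382 to 1702742 reads on genes per sample, and counting intervals are exact binomial ones at 95%. The alternatives tried were DESeq2 1.42.0 and its size factors, other filters and pseudocounts, a 2-fold minimum, other interval bounds, a replicate block, leaving out each replicate and leaving out genes with opposite-strand exon overlap.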

Additional observations from a re-analysis of the deposited data

Results flagged for a closer look

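The difference between DHT and enzalutamide itself changed with JQ-1 for 282 of 11494 genes by an interaction term in edgeR, and for 28 of the 113 named genes tested. The named genes were mostly chosen for large differences in the same samples without JQ-1. Some would therefore differ less with JQ-1 by that choice alone, and the 28 and the 282 cannot be set against each other. The genes below are those named from the classes or always named, and each value is the change that JQ-1 made to the DHT minus enzalutamide log2 difference, with its adjusted p from edgeR. The 3 samples in each of the 4 groups give these tests little depth for low genes, and nothing was done to explain the values.

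NDRG1 (-0.83, 0.00068), TPD52 (-0.91, 0.00087), FADS2 (-0.60, 0.013) and SPOCK1 (-1.88, 0.027) had a smaller excess with DHT under JQ-1. NDRG1 was at 26.6, 27.0 and 29.0 FPKM with enzalutamide and JQ-1 and 135.2, 152.5 and 149.4 FPKM with DHT and JQ-1, which did not overlap. TNFRSF10B (1.37, 1.9e-10) and KLK3 (1.05, 1.5e-07) had a larger excess with DHT under JQ-1. TNFRSF10B was at 251.1, 257.4 and 247.8 FPKM with DHT and JQ-1, where DHT alone gave 92.4, 91.0 and 89.1 FPKM, and at 38.3, 39.9 and 38.8 FPKM with enzalutamide and JQ-1. KLK3 was at 44.9, 46.7 and 46.1 FPKM with enzalutamide and JQ-1 and 158.5, 163.9 and 160.6 FPKM with DHT and JQ-1, all below the vehicle samples without JQ-1. VPS26B (0.58, 0.017) also had a larger excess, and its counts overlap another gene on the opposite strand.

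NIPSNAP3A (1.74, 2.7e-08), DDC (1.61, 0.0081) and ST7-AS1 (1.06, 0.025) had a smaller deficit with DHT under JQ-1. NIPSNAP3A was at 79.3, 92.1 and 87.4 FPKM with enzalutamide and JQ-1 and 55.8, 56.2 and 55.8 FPKM with DHT and JQ-1. PIK3R1 (1.08, 1.8e-05) lost its excess with enzalutamide, at 15.2, 14.1 and 14.6 FPKM with enzalutamide and JQ-1 and 15.8, 16.4 and 15.7 FPKM with DHT and JQ-1.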

How the results depend on the processing

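All 113 genes named by the rule kept their direction under every alternative run, and 104 stayed called whichever 1 replicate was left out. The naming rule already required both measures to call a gene and the ligand samples not to overlap. The directions of the named genes were therefore largely set in advance and do not test robustness. Of 20 list medians, 17 kept 1 sign under every alternative; those of the S phase regulators, oxidative phosphorylation and polyamine lists changed sign. Counts of genes depended on the tool and threshold, and the cause was not tested. For DHT against enzalutamide (2122), DESeq2 called 1223, a 2-fold minimum left 579, limma on FPKM called 6904 and 6883 with the other scale, an equal-variance test called 978 and genes with no opposite-strand overlap gave 1247; leaving out 1 replicate gave 1483 to 2120. DHT-restricted genes (985) numbered 418 by DESeq2, 95 at 2-fold, 5314 and 4970 by limma, 252 and 1589 with a narrower and a wider interval bound, 538 without overlapping genes and 561 to 908 with 1 replicate left out. Graded genes (355) numbered 207, 160, 571 and 833, 218 and 217 to 365 in the same order. Under JQ-1 (1980) the counts were 991, 346, 5214, 1056 and 1492 to 1766, and in full serum (1181) 76 at 2-fold, 575 by limma and 406 to 2533. By FPKM (6904) leaving out 1 replicate gave 5700 to 6472. Between DHT and enzalutamide, deviations of samples with the same replicate number from their group means correlated at r = -0.05, -0.02 and -0.18. Between enzalutamide and vehicle r was 0.10, -0.01 and 0.18, and between DHT and vehicle 0.06, -0.09 and -0.08. With 3 samples in a group these values cannot show whether the numbers pair samples. With a replicate block 1692 genes were called between DHT and enzalutamide and 6167 by FPKM. The low share of reads on genes in charcoal-stripped serum limits what the counts can show for genes with few reads.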
